A study of Mus musculus with 14 samples.

Results

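Ptgds and 9 further genes known from the fibroblasts of the brain's coverings, the meninges, were followed through the cortex and hippocampus of mice: Ptgds, Igf2, Igfbp2, Dcn, Lum, Slc6a13, Slc6a20a, Ogn, Mgp and Aldh1a2. They were chosen by name, and all 10 were found among the 20492 gene symbols of the deposited tables. Levels are FPKM, a fragment count scaled by library total and transcript length, summed over the rows of each gene. Each condition has 1 value that the authors pooled over its samples. No spread between samples can therefore be given, and every p or q below is the authors' own, apart from the comparison between tissues. A gene is called changed at a deposited q of 0.05 or less. The q is the p adjusted for many tests, over the 3 comparisons together in hippocampus and over a set not given here in cortex.

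The groups were control and TRF2 depleted C57BL/6 mice aged 3 months, with 4 and 3 samples of cortex and 3 and 3 of hippocampus, and 1 more sample, labelled with both tissues, left out of the groups. Whether the authors' pooled values include that sample is not stated. TRF2 protects chromosome ends, and the design text names Cre under DCX, which young migrating neurons express and fibroblasts are not known to. No source used here gives the Terf2 allele or what the controls carry. The hippocampus table also holds a condition named DKO, and no label used here gives its genotype or number of samples, so its values are reported under that name only. Terf2 was called in no comparison, with 1 row tested in cortex (p = 0.105, q = 0.576) and none in TRF2-depleted against control hippocampus by the authors' deposited table. Summed over its rows, it was 3.59 FPKM in control against 0.202 FPKM in TRF2-depleted cortex, and 2.01, 0.883 and 0.753 FPKM in control, TRF2-depleted and DKO hippocampus. Prox1, a marker of dentate granule neurons, was 1.60 and 1.53 FPKM in control and TRF2-depleted cortex and 4.88, 1.38 and 2.64 FPKM in control, TRF2-depleted and DKO hippocampus. The cortical marker Rorb was 9.80 and 11.3 FPKM in cortex and 3.99, 3.98 and 3.46 FPKM in hippocampus in the same order. Both were chosen after their values were seen, and Prox1 in TRF2-depleted hippocampus was no higher than in cortex. Its part in the hippocampus results was not tested. The sequencing depth behind these values is unknown.

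Meningeal fibroblasts line the surface of the brain and its larger vessels, where they lay down matrix and release soluble factors into the cerebrospinal fluid. Ptgds makes prostaglandin D2 and is secreted as a carrier of small lipophilic molecules. Igf2 is a growth factor and Igfbp2 a protein that binds it. Dcn, Lum and Ogn are small leucine-rich proteoglycans that organise collagen fibrils, and Mgp is a vitamin K dependent inhibitor of calcification. Slc6a13 carries GABA and taurine, Slc6a20a carries proline, and Aldh1a2 makes retinoic acid. Several of these genes are not restricted to fibroblasts: Ptgds is also made by oligodendrocytes, and Ptgds, Igf2 and Igfbp2 by the choroid plexus, the epithelium that secretes cerebrospinal fluid.

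In the hippocampus, Ptgds rose in the TRF2-depleted and in the DKO condition. The other members were higher in the TRF2-depleted condition, where none of them was called and Lum was not tested. Ptgds (chromosome 2 from 25466709 to 25470046, minus strand, GENCODE M21 on GRCm38) was 165 FPKM in control, 265 FPKM in TRF2-depleted and 283 FPKM in DKO hippocampus by the authors' deposited table. This is a 1.60-fold rise in the TRF2-depleted condition (log2 ratio 0.68, deposited p = 5e-05, q = 0.0301) and a 1.71-fold rise in DKO (log2 ratio 0.78, deposited p = 5e-05, q = 0.0301) by the authors' deposited table. Both p-values are the smallest that the table holds. The TRF2-depleted and DKO conditions lay close together and both above control, and DKO against TRF2-depleted gave a log2 ratio of 0.10 (p = 0.485, q = 0.921) by the authors' deposited table. Among all gene symbols ordered by FPKM, Ptgds stood at rank 118 in control, 48 in TRF2-depleted and 46 in DKO hippocampus. The share of tested rows called was 0.163% for TRF2-depleted and 0.181% for DKO against control, of which rows called higher made 0.0543% and 0.0635% of those tested, and Ptgds was the 1 member called in each.

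**Figure D1:**
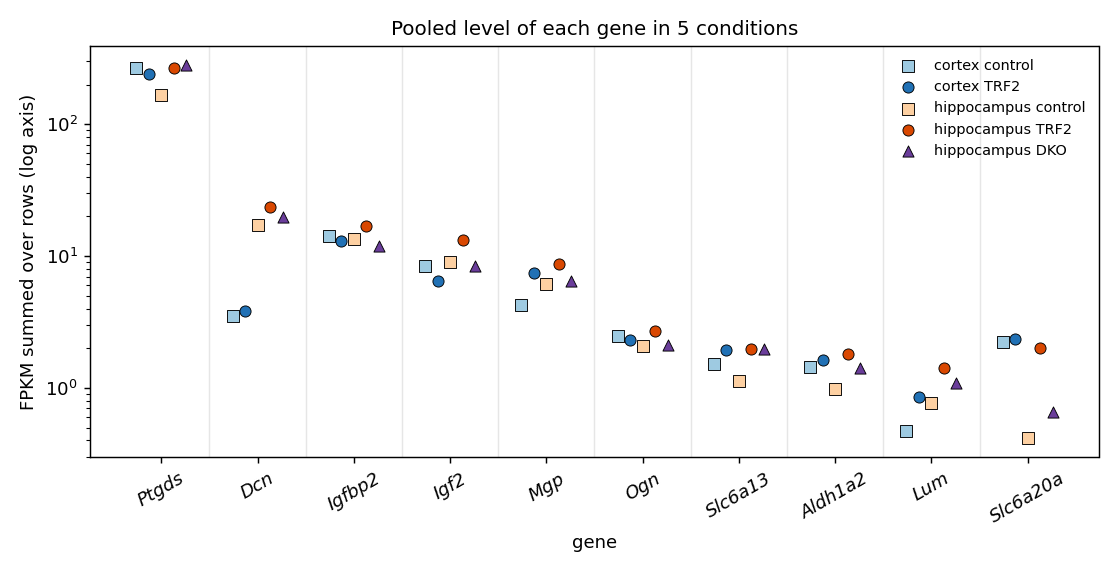
FPKM of each of the 10 genes on a log axis, summed over the rows of the gene, with 1 point per condition (squares: control, circles: TRF2-depleted, triangles: DKO; blue: cortex, orange and purple: hippocampus) and no error bars because the values are pooled. Ptgds lies between 165 and 283 FPKM, and the hippocampus control is the lowest of the 3 hippocampus conditions for 8 of the 10 genes.

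The region around a RefSeq transcription start of Ptgds is shown with those of Slc6a13, also above control in DKO hippocampus, and Igfbp2, below control there. The windows run from 250 bases before to 50 bases after a RefSeq start on GRCm38.p6, on the strand of the gene, and 7 of the 10 members matched a window. Dcn, Lum and Mgp had none. By the GENCODE M21 coordinates, which reach 25470046, the whole Ptgds window lies inside the gene. Its positions therefore hold for the RefSeq start only. Capitals mark matches on either strand to 4 motifs. The search covered TATAAA, the element found near many start sites. The AP-1 motif searched was TGACTCA. The E-box searched was CAGCTG. The GC box searched was GGGCGG.
Ptgds, chr2:25469700-25469999, minus strand: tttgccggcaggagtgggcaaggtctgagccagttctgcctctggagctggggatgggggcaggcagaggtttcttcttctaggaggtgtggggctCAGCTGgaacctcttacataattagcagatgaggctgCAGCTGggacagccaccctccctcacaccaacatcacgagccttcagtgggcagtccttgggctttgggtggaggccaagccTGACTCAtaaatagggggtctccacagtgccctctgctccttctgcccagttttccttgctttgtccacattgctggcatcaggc
Slc6a13, chr6:121300038-121300337, plus strand, the first of its 3 windows: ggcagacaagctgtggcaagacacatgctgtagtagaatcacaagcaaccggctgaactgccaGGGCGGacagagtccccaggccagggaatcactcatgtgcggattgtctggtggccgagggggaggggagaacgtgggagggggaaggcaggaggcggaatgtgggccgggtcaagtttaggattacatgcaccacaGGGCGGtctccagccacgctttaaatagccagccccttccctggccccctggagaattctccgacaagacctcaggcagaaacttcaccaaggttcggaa
Igfbp2, chr1:72824230-72824529, plus strand, the first of its 2 windows: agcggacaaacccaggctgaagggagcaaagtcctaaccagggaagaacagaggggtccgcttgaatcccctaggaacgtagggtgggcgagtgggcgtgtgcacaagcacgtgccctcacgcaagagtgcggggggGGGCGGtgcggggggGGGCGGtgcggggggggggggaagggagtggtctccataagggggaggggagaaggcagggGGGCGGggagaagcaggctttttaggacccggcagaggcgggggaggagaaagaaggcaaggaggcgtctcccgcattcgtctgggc

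The Ptgds window held TGACTCA from 35 bases before the RefSeq start and CAGCTG from 154 and from 117 bases before it. TGACTCA or its reverse complement is present in 5.20% and CAGCTG in 16.3% of the 32851 windows of the same length. The Slc6a13 window held GGGCGG from 187 and 50 bases before its start, and the Igfbp2 window from 113, 98 and 37 bases before its own. Of their windows not printed, 1 of Igfbp2 held the reverse complement of TGACTCA from 39 bases before its start, and 1 of Slc6a13 held CAGCTG from 129 bases before its start. GGGCGG is present in 35.7% of all windows and TATAAA, found in none of these 3, in 13.6%. No 2 matches overlapped, and a match describes letters and not a bound site.

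The growth factor pair was higher in the TRF2-depleted hippocampus and near control in DKO. Igf2 (chromosome 7 from 142650766 to 142666816, minus strand) summed to 8.96 FPKM in control, 13.2 FPKM in TRF2-depleted and 8.41 FPKM in DKO hippocampus. Its 1 tested row, of 2, was 7.94 FPKM in control against 12.3 FPKM in TRF2-depleted hippocampus by the authors' deposited table (log2 ratio 0.63, p = 0.00025, q = 0.107). That row was 6.81 FPKM in DKO, which gave a log2 ratio of -0.85 against TRF2-depleted (p = 0.00295, q = 0.409) and -0.22 against control (p = 0.291, q = 0.887) by the authors' deposited table. The other row, at 1.02, 0.938 and 1.60 FPKM in control, TRF2-depleted and DKO hippocampus, was not tested in the hippocampus. The Igf2 locus also holds the overlapping gene model Gm49394, so reads of the 2 cannot be told apart here.

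Igfbp2 (chromosome 1 from 72824503 to 72852474, plus strand) was 13.5 FPKM in control, 16.8 FPKM in TRF2-depleted and 12.0 FPKM in DKO hippocampus by the authors' deposited table. Its level in DKO was the lowest of the 3, and its order matched that of Igf2 in having TRF2-depleted highest and DKO lowest. The deposited p was 0.0813 for TRF2-depleted against control (log2 ratio 0.31, q = 0.886) and 0.00455 for DKO against TRF2-depleted (log2 ratio -0.49, q = 0.472) by the authors' deposited table. Among the 17 other genes of the insulin-like growth factor system, 11 were tested in each hippocampus comparison and 0 were called, with 0 at an unadjusted p under 0.05. Igfbp5 and Igfbp3, further binding proteins, had the smallest p in TRF2-depleted against control, at 19.4 and 16.6 FPKM (p = 0.0728) and at 3.59 and 4.61 FPKM (p = 0.0784) by the authors' deposited table.

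The proteoglycans of the set were higher in the TRF2-depleted hippocampus than in control, and none of them was called. Dcn (chromosome 10 from 97479609 to 97518143, plus strand) was 17.3, 23.4 and 19.9 FPKM in control, TRF2-depleted and DKO hippocampus by the authors' deposited table, against 3.54 and 3.86 FPKM in control and TRF2-depleted cortex. The level in control hippocampus was 4.89 times that in control cortex, the highest such ratio among the members. The 2 tissues were scaled in separate tables and the ratio has no test. TRF2-depleted against control hippocampus gave a log2 ratio of 0.44 (p = 0.00220, q = 0.361), and DKO against control 0.21 (p = 0.125, q = 0.886), by the authors' deposited table.

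Lum lies 46984 bases downstream of Dcn on the same strand (chromosome 10 from 97565128 to 97572703). It was the least abundant proteoglycan of the set, with 0.766, 1.41 and 1.08 FPKM in control, TRF2-depleted and DKO hippocampus by the authors' deposited table. It was not tested by the authors in any comparison, so these values carry no error of any kind. Ogn (chromosome 13 from 49608046 to 49624501, plus strand) was 2.06, 2.68 and 2.13 FPKM in the same order by the authors' deposited table, with p = 0.306 for TRF2-depleted and p = 0.906 for DKO against control. Its deposited locus, from 49464059 to 49652731, also spans the proteoglycan genes Ecm2, Aspn and Omd, which each have rows of their own. Omd and Aspn went the other way in TRF2-depleted hippocampus, at 0.989 and 0.665 FPKM and at 0.780 and 0.367 FPKM. Ecm2 did not, at 0.890 and 1.19 FPKM. Omd was not tested. Of the 14 other small leucine-rich proteoglycan genes, 3 were tested in each hippocampus comparison and 0 were called, with 1, 0 and 0 at an unadjusted p under 0.05 in TRF2-depleted against control, DKO against control and DKO against TRF2-depleted. In the first of these comparisons 7 of the 14 were higher and 5 lower. Bgn, biglycan, had 2.39 FPKM in control against 3.84 FPKM in TRF2-depleted hippocampus (p = 0.00500, q = 0.493), and Prelp had 4.92 and 4.35 FPKM (p = 0.297), by the authors' deposited table.

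Slc6a13 was level between TRF2-depleted and DKO hippocampus and Slc6a20a was not, a difference between the transporters that was not tested. Slc6a13 (chromosome 6 from 121300227 to 121337733, plus strand) was 1.13 FPKM in control, 1.96 FPKM in TRF2-depleted and 1.97 FPKM in DKO hippocampus by the authors' deposited table. Its 2 higher values were nearly equal, with log2 ratios against control of 0.79 (p = 0.0201, q = 0.783) and 0.80 (p = 0.0116, q = 0.661) by the authors' deposited table. DKO against TRF2-depleted gave 0.01 (p = 0.976, q = 0.997) by the authors' deposited table. Slc6a20a (chromosome 9 from 123634770 to 123678885, minus strand) was 0.415, 2.00 and 0.655 FPKM in control, TRF2-depleted and DKO hippocampus, and 2.23 and 2.33 FPKM in control and TRF2-depleted cortex, by the authors' deposited table. Control and DKO hippocampus were both well below the other 3 conditions. The log2 ratio of 2.27 in TRF2-depleted hippocampus, the highest of any member, had p = 0.0383 and q = 0.886, and that of -1.61 for DKO against TRF2-depleted had p = 0.116, by the authors' deposited table. The neighbouring paralog Slc6a20b was listed at 0 in control hippocampus and both cortex conditions and at no more than 0.0388 FPKM elsewhere, and the division of reads between the copies is uncertain. Of the 12 other Slc6 amino acid transporters, 8 were tested in each hippocampus comparison and 0 were called, with 2, 0 and 1 at an unadjusted p under 0.05 in that order of comparisons. Slc6a7, a proline carrier of neurons, had 8.44 FPKM in control against 10.5 FPKM in TRF2-depleted hippocampus (p = 0.0402), and the GABA carrier Slc6a11 had 18.1 and 21.6 FPKM (p = 0.0472), by the authors' deposited table.

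Mgp (chromosome 6 from 136872435 to 136875823, minus strand) was 6.19, 8.78 and 6.44 FPKM in control, TRF2-depleted and DKO hippocampus by the authors' deposited table. Control and DKO were nearly level, and the log2 ratio of 0.50 for TRF2-depleted against control had p = 0.132 by the authors' deposited table. Of 9 genes of the vitamin K cycle and of BMP ligands, which Mgp binds, 5 were tested in TRF2-depleted against control and 0 were called, with 0 at an unadjusted p under 0.05. Ggcx, the carboxylase that activates Mgp, had 1.99 and 1.28 FPKM (p = 0.169), and Gas6 had 15.5 and 17.5 FPKM (p = 0.205), by the authors' deposited table.

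Aldh1a2 (chromosome 9 from 71215789 to 71296243, plus strand) was 0.974, 1.82 and 1.42 FPKM in control, TRF2-depleted and DKO hippocampus by the authors' deposited table. The DKO value lay between the other 2. The log2 ratio of 0.90 for TRF2-depleted against control had p = 0.0114 and q = 0.661, and that of -0.36 for DKO against TRF2-depleted had p = 0.204, by the authors' deposited table. Of 18 other retinoic acid genes, 9 were tested in each hippocampus comparison and 0 were called, with 1, 1 and 3 at an unadjusted p under 0.05. Cyp26b1, which degrades retinoic acid, had 1.73 FPKM in control against 2.34 FPKM in TRF2-depleted hippocampus (p = 0.0431), and the receptor gene Rxrb had 0.721 and 2.56 FPKM in 1 of its 4 rows (p = 0.0932) and 9.54 and 10.7 FPKM over all of them, by the authors' deposited table. Of the 18 other prostaglandin genes, 6 were tested in each hippocampus comparison and 0 were called, with 0 at an unadjusted p under 0.05. Ptgs1, a cyclooxygenase that feeds the pathway of Ptgds, had 1.97 and 2.24 FPKM (p = 0.453), and Ptges3 had 60.8 and 66.7 FPKM (p = 0.289), in control and TRF2-depleted hippocampus by the authors' deposited table.

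**Figure D2:**
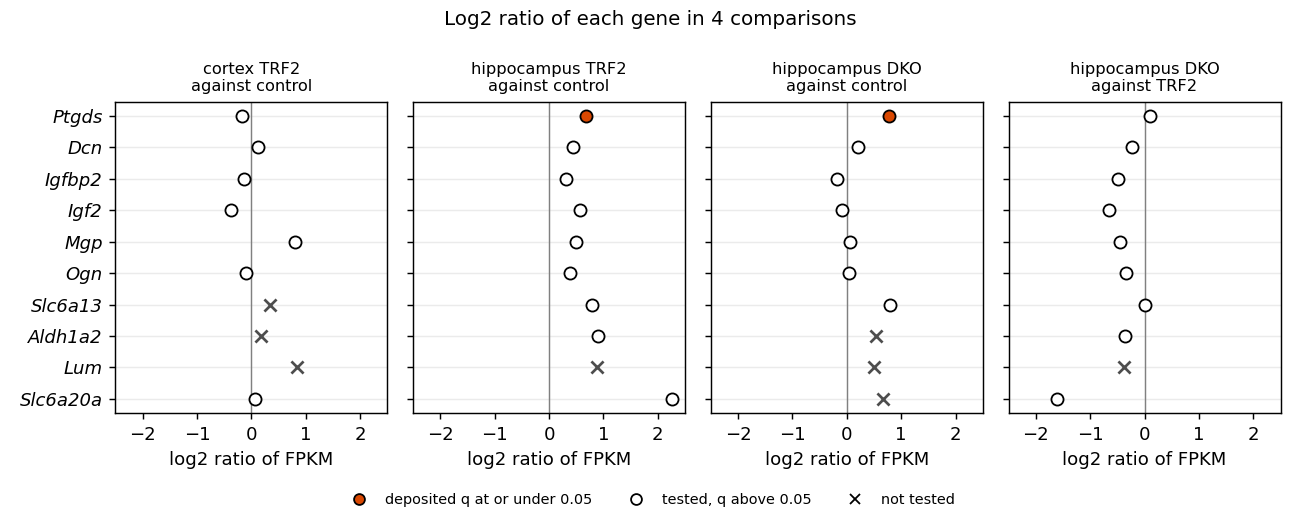
Log2 ratio of summed FPKM (x axis) for each of the 10 genes (y axis) in 4 comparisons, with filled points for genes whose deposited q was 0.05 or less, open points for tested genes above it and crosses for genes not tested. All 10 points lie above 0 for TRF2-depleted against control hippocampus, and 8 lie below 0 for DKO against TRF2-depleted.

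As a set, 10 of 10 members were higher in TRF2-depleted than in control hippocampus, where 50.3% of 11249 genes with at least 1 FPKM in 1 condition were higher. The log2 ratios of the members ran from 0.31 to 2.27 with a median of 0.62, against a median of 0.00 over those genes. The set was chosen with such results known, so this count is a description. At an unadjusted p under 0.05, 6 of 9 tested members were higher, against 2.42% of all tested rows. Aldh1a2 and Slc6a20a were tested in the hippocampus only where the TRF2-depleted condition entered, and of the 7 members tested in all 3 hippocampus comparisons 4 were at that p. In bulk tissue, a change in the number of cells of a type and a change in RNA per cell cannot be told apart.

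DKO against control gave 8 of 10 members higher, against 52.1% of genes, with a median log2 ratio of 0.35 against 0.01. Over the 7 tested members the median was 0.055, since the 3 untested genes Lum, Slc6a20a and Aldh1a2 had log2 ratios of 0.50, 0.66 and 0.54. Ptgds and Slc6a13 were the 2 of 7 tested members at an unadjusted p under 0.05, against 3.83% of rows that were higher at that p. DKO against TRF2-depleted gave 8 of 10 members lower, against 47.8% of genes, and a median of -0.37 against 0.01. In that comparison 0 of 9 tested members were called, where 0.154% of rows were, and Igf2 and Igfbp2 were lower at an unadjusted p under 0.05, against 1.88% of rows. The comparisons with control share the control samples, and those with TRF2-depleted share its samples.

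Other leptomeningeal and fibroblast genes were described with a list of 34 that shares no gene with the set. In TRF2-depleted against control hippocampus 31 of 34 were higher (median log2 ratio 0.37), and in DKO against control 31 of 34 (median 0.46), with 17 tested and 0 called in each and 4 higher at an unadjusted p under 0.05 in each. DKO against TRF2-depleted gave 17 higher and 17 lower (median 0.00), with 18 tested, 0 called and 1 lower at an unadjusted p under 0.05, Itih5. Col1a2, a chain of type I collagen, had 1.81, 2.80 and 2.52 FPKM in control, TRF2-depleted and DKO hippocampus, with p = 0.00285 for TRF2-depleted and p = 0.0144 for DKO against control by the authors' deposited table. Itih5, which binds hyaluronan, had 2.31 and 3.26 FPKM in hippocampus of control and TRF2-depleted mice (p = 0.00130, q = 0.305) and 2.46 FPKM in DKO by the authors' deposited table. Foxc1, a transcription factor needed for meningeal development, had 1.11 FPKM in control and 1.81 FPKM in DKO (p = 0.00535, q = 0.495) and the solute carrier Slc13a3 had 2.06 and 3.09 FPKM (p = 0.00595, q = 0.514) by the authors' deposited table.

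Of 20 choroid plexus markers, 19 were lower in DKO than in control hippocampus, with 9 tested and 5 called, and 20 were lower than in TRF2-depleted, with 12 tested and 4 called. The summed level of its 20 markers was 338 FPKM in control, 565 FPKM in TRF2-depleted and 29.1 FPKM in DKO hippocampus, and none of the markers was listed at 0 there. Transthyretin, Ttr, made up most of the sum in control and TRF2-depleted hippocampus, with 264, 472 and 5.52 FPKM by the authors' deposited table. DKO against control gave 5 of 9 tested markers lower and called, Ttr, Clic6 (2.77 to 0.287 FPKM), Sostdc1 (2.97 to 0.685 FPKM), Slc29a4 (6.19 to 3.28 FPKM) and Kl (5.83 to 3.16 FPKM), each at q = 0.0301 by the authors' deposited table. DKO against TRF2-depleted gave 4 of 12, namely Ttr, Clic6, Sostdc1 and Kl. TRF2-depleted against control gave 17 of 20 markers higher with 0 of 13 called and 4 higher and 1 lower at an unadjusted p under 0.05, and the smallest p were those of Slc29a4 (6.19 and 4.11 FPKM, p = 0.00305) and Lbp (1.01 and 1.99 FPKM, p = 0.00495) by the authors' deposited table. Ptgds had 283 FPKM and Slc6a13 1.97 FPKM in DKO, where the choroid plexus sum was at its lowest in hippocampus. Both Ptgds (165 and 265 FPKM) and the choroid plexus sum were higher in TRF2-depleted than in control hippocampus. The other 8 members had their highest hippocampus level in the TRF2-depleted condition, as the choroid plexus sum did. The part of the choroid plexus in the values of Ptgds and of the other members was not tested.

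**Figure D3:**
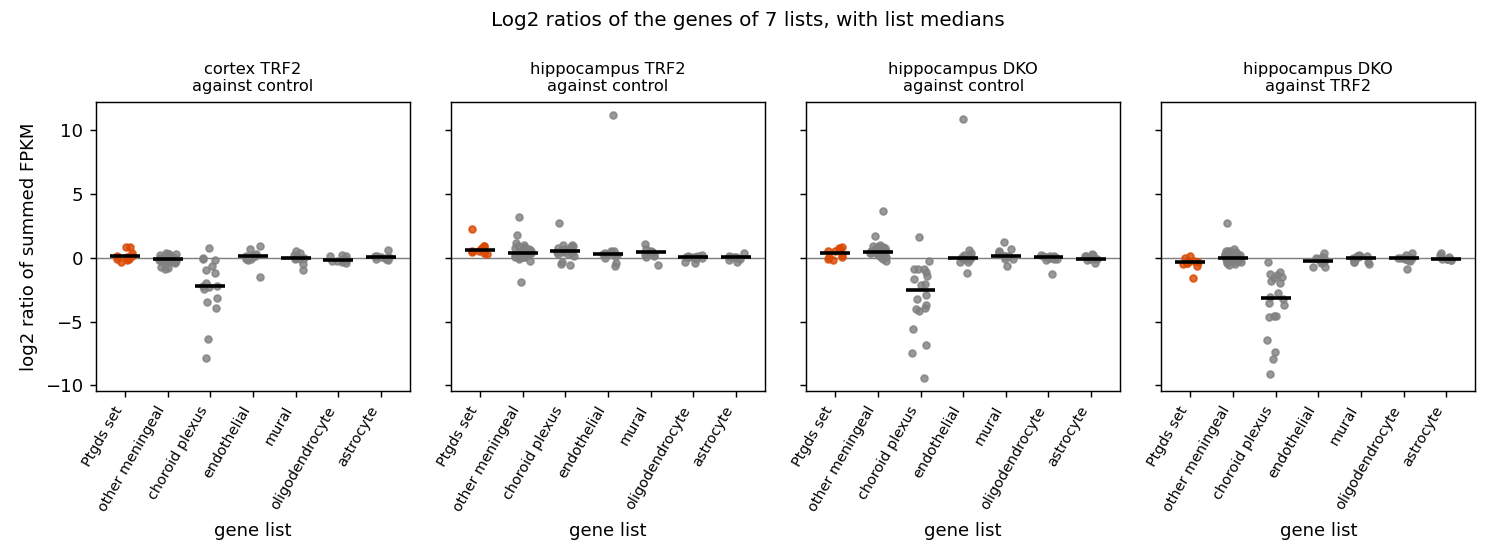
Log2 ratios of summed FPKM (y axis) of the genes of 7 lists (x axis) in 4 comparisons, with 1 point per gene above 0 in both conditions and a bar at the list median. The choroid plexus list has a median of -2.54 for DKO against control, where the set with Ptgds has 0.35 and the other meningeal list 0.46. The endothelial point far above the rest in 2 panels is Slco1a4, whose control value was close to 0.

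Other cell types that may contribute were followed with the same lists. Oligodendrocyte markers, 12 of 12 of them tested, summed to 862, 893 and 868 FPKM in control, TRF2-depleted and DKO hippocampus, with median log2 ratios against control of 0.06 and 0.02, 0 called and 0 at an unadjusted p under 0.05. Cnp, an enzyme of myelin-forming cells, summed to 59.9 and 66.9 FPKM in hippocampus of control and TRF2-depleted mice. Its 2 tested rows went opposite ways, at 40.2 and 49.9 FPKM (p = 0.122) and at 19.8 and 16.9 FPKM (p = 0.575), by the authors' deposited table. Mural cell markers summed to 36.0, 47.2 and 43.5 FPKM and endothelial markers to 47.4, 53.8 and 51.3 FPKM in the same order, with 0 called. In TRF2-depleted against control, 10 of 11 mural markers were higher (median log2 ratio 0.44) and 9 of 12 endothelial markers (median 0.32), beside the 0.37 of the 34 other meningeal genes. At an unadjusted p under 0.05, 2 of 5 tested mural markers were higher there, and of 7 tested endothelial markers 2 were higher and 1 lower. In DKO against control the medians were 0.15 and -0.03, with 1 of 6 tested mural and 1 of 8 tested endothelial markers higher at that p. Acta2, the actin of smooth muscle, had 2.85 and 4.60 FPKM (p = 0.00205, q = 0.359) and Vtn, known from pericytes, 10.99 and 15.2 FPKM (p = 0.00455, q = 0.472) in hippocampus of control and TRF2-depleted mice by the authors' deposited table. Vtn in DKO was 15.6 FPKM (p = 0.00110, q = 0.284 against control) by the authors' deposited table. Of the endothelial genes, Esam had 2.45 and 3.53 FPKM (p = 0.0306) and Ly6c1 10.9 and 6.84 FPKM in its tested row (p = 0.0410) by the authors' deposited table. Astrocyte markers, 9 of 9 tested with 0 called and 1 at an unadjusted p under 0.05 in that comparison, summed to 636, 617 and 623 FPKM, and Aldh1l1 had 6.54 and 8.49 FPKM (p = 0.0168) against 20.1 and 15.7 FPKM of Aqp4 (p = 0.0689) by the authors' deposited table. The part of vessels in the values of the set was not tested.

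In the cortex, 0 of 7 tested members were called, against 0.304% of tested rows, and 6 of 10 were higher, against 44.8% of genes. Their median log2 ratio was 0.10, against -0.03 over 11084 genes. Ptgds was 268 FPKM in control against 239 FPKM in TRF2-depleted cortex (log2 ratio -0.16, p = 0.133, q = 0.609) by the authors' deposited table. On a separately scaled table, both cortex values lay near those of the TRF2-depleted and DKO hippocampus, and control hippocampus was the lowest of the 5 conditions. Igf2 summed to 8.37 and 6.48 FPKM, and its tested row was 6.81 and 6.28 FPKM (p = 0.495) by the authors' deposited table. Igfbp2 was 14.2 and 13.0 FPKM (p = 0.358) and Ogn 2.46 and 2.30 FPKM (p = 0.759) by the authors' deposited table. Dcn (p = 0.573) and Slc6a20a (p = 0.825) had log2 ratios of 0.13 and 0.06 by the authors' deposited table.

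Mgp was the 1 member at an unadjusted p under 0.05 in cortex, against 2.07% of rows that were higher at that p. It had 4.24 FPKM in control against 7.40 FPKM in TRF2-depleted cortex (log2 ratio 0.80, p = 0.0262, q = 0.370) by the authors' deposited table. Lum had 0.473 and 0.847 FPKM, Slc6a13 1.53 and 1.93 FPKM and Aldh1a2 1.45 and 1.63 FPKM in control and TRF2-depleted cortex by the authors' deposited table, and these 3 were not tested. The 34 other meningeal genes gave 25 lower and 9 higher (median -0.08, 13 tested, 0 called), and Thbd (3.69 and 3.02 FPKM, p = 0.0929) and Fmod (3.67 and 3.03 FPKM, p = 0.133) had the smallest p by the authors' deposited table. The choroid plexus sum was 145 FPKM in control against 43.8 FPKM in TRF2-depleted cortex, and Ttr fell from 93.3 to 1.15 FPKM (q = 0.00864) by the authors' deposited table. Of the 20 choroid plexus markers 2 were tested, Ttr and Enpp2, and Ttr alone was called. Enpp2 had a log2 ratio of -0.11 over its summed rows. Its larger tested row had 29.7 and 28.2 FPKM (p = 0.713) by the authors' deposited table, most of the sum in TRF2-depleted cortex. The sum therefore understates the fall in the rest of the list. Of 17 markers above 0 in both conditions 16 were lower (median log2 ratio -2.18). In that list Wfdc2 was listed at 0 in control, and Otx2 and Kcne2 in TRF2-depleted cortex. In the insulin-like growth factor list Irs2, an adaptor of the receptors, fell from 13.1 to 9.92 FPKM (log2 ratio -0.40, q = 0.00864) by the authors' deposited table, the 1 called of 10 tested.

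The remaining cortex lists had 0 called genes. Of 7 tested prostaglandin genes 2 were lower at an unadjusted p under 0.05, namely Ptges2, a prostaglandin E synthase (7.73 and 5.48 FPKM, p = 0.00145, q = 0.0858), and the cyclooxygenase gene Ptgs2 (5.25 and 3.83 FPKM, p = 0.00335, q = 0.141), by the authors' deposited table. Oligodendrocyte markers summed to 912 and 826 FPKM, and 3 of 12 were lower at that p, with Sox10 at 5.55 and 4.15 FPKM (p = 0.00490, q = 0.173) by the authors' deposited table. Ptgds and the sums of the oligodendrocyte, choroid plexus and other meningeal lists were all lower in TRF2-depleted cortex. The mural and endothelial sums were higher there, and the part of these cell types in the Ptgds values was not tested. Of 3 tested proteoglycan genes Prelp passed that p (2.41 and 1.79 FPKM, p = 0.0326), and of 6 tested retinoic acid genes the receptor gene Rara in its tested row (2.49 and 1.47 FPKM, p = 0.0304, with sums over rows of 3.01 and 2.03 FPKM), by the authors' deposited table. Of 8 tested Slc6 transporters, 4 tested Mgp partners, 6 endothelial, 3 mural and 9 astrocyte markers, 0 passed it. Mural markers summed to 36.4 and 39.3 FPKM, and their gene Vtn was 9.19 and 11.8 FPKM (p = 0.0802) by the authors' deposited table.

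The cortex and hippocampus responses to TRF2 depletion were compared directly for the 7 members tested in both tissues, with the error of each log2 ratio taken from its deposited p, two-sided, and adjusted over 8330 genes. The difference, cortex minus hippocampus, with errors from the p-values of the authors, was -0.84 for Ptgds (95% interval -1.23 to -0.45, adjusted p = 0.0570). At the smallest p in the table such an error is an upper bound, and Ptgds did not pass at 0.05. On the same errors from the authors it was -0.75 for Igf2 (95% interval -1.22 to -0.27, adjusted p = 0.404) and -0.44 for Igfbp2 (95% interval -0.89 to 0.0048, adjusted p = 0.896). The intervals of Slc6a20a (-4.43 to 0.01), Dcn (-0.83 to 0.21), Ogn (-1.44 to 0.48) and Mgp (-0.67 to 1.26) spanned 0. Over all genes compared 0.024% passed. The Igf2 rows tested in the 2 tissues carry different row identifiers, so its difference may compare 2 coding sequences. The test treats the tissues as independent, and the labels do not say whether they came from the same animals.

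**Figure D4:**
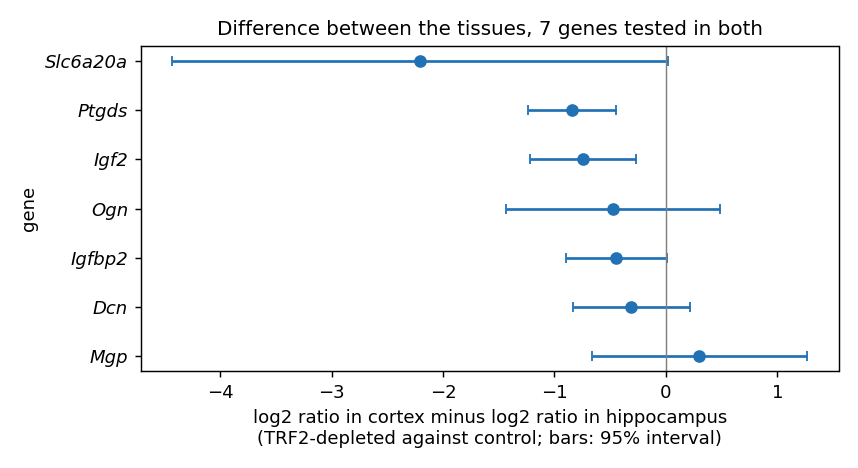
Difference of the log2 ratios of TRF2-depleted against control between cortex and hippocampus (x axis) for the 7 genes tested in both (y axis), with 95% intervals from errors implied by the deposited p. The intervals of Ptgds and Igf2 lie below 0 before adjustment, and 0 of 7 passed after it.

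Across the 5 conditions, 7 members were highest in TRF2-depleted hippocampus, Ptgds and Slc6a13 in DKO hippocampus and Slc6a20a in TRF2-depleted cortex. Control hippocampus was the lowest of the 5 for Ptgds, Slc6a13, Slc6a20a, Ogn and Aldh1a2. The spread was widest for Dcn, at 6.61 times from lowest to highest, and narrowest for Ogn, at 1.30 times. Neighbours in these orders cannot be separated by a spread between samples, since none is given. The genes with a pattern closest to Ptgds, by distance of log2(FPKM + 0.1) centred on each gene over the 5 conditions, were Fam69b (0.15), Ten1 (0.16) and Grk6 (0.18) among 4554 genes with at least 5 FPKM in each condition. Igfbp2 and Igf2, the other members at that level, lay at 0.70 and 0.92. Fam69b had 14.7, 13.5, 10.2, 15.8 and 15.9 FPKM in control and TRF2-depleted cortex and in control, TRF2-depleted and DKO hippocampus, with q = 0.886 for TRF2-depleted against control hippocampus by the authors' deposited table. Ten1, a subunit of a complex that acts at telomere ends, had 10.7, 9.71, 7.37, 10.2 and 11.6 FPKM in that order (q = 0.901), and Grk6, a kinase of G protein coupled receptors, had 8.27, 7.64, 5.92, 8.49 and 9.77 FPKM (q = 0.886), by the authors' deposited table.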

How the data were processed

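Total RNA of cortex and hippocampus was sequenced. TopHat2, Cufflinks, Cuffdiff, CASAVA 1.8 and the build mm10 are named per the submitters' processing notes. Further versions, settings and annotation: not given in the sources used here. Levels were deposited as FPKM, pooled by the authors over the replicates of a condition, 1 per coding-sequence row, per the file headers. The authors' test statistic, a score, and their deposited p-value and q-value stand in each row. For hippocampus, adjusting the deposited p-values over all 3 comparisons by Benjamini-Hochberg gives the q-values to within 5.26e-07. Deposited cortex q-values differ from one over their table by up to 0.335, on a set of tests not given here.

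Computed here were sums over rows, log2 ratios, list counts and the test between tissues. The last was run on simulated data (198 of 200 genes with a log2 difference of 2 recovered among 8332, 13 false calls). Its recovery of smaller differences, such as the -0.84 of Ptgds, was not tested, nor was its error rate on the deposited p-values. Python 3.11.15 was used with scipy 1.17.1, matplotlib 3.10.9, pandas 2.3.3 and numpy 2.4.6. Rows the authors did not test entered no count of calls. In all, 25 symbols read as dates, and no member is among them. Promoter sequences are from RefSeq on GRCm38.p6 and gene coordinates from GENCODE M21, the assembly that mm10 names. The text names all members, Terf2, Ttr, Enpp2 in cortex, called genes of each list or else the 2 of smallest p in the comparison described, and 3 genes closest to Ptgds. A gene that this rule would name is not reported here. Members and lists were chosen with earlier results of these data known. Alternatives covered the threshold, the adjustment, the minimum FPKM, the pseudocount, centring and the choice of row. No label ties samples to separate animals, so the spread behind the authors' p-values may be technical.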

Additional observations from a re-analysis of the deposited data

How the results depend on the processing

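Ptgds stayed the 1 member called in TRF2-depleted and in DKO against control hippocampus at a q of 0.1, after adjustment within each comparison alone and with a minimum of 1 FPKM. At a q of 0.01 both counts were 0, since the smallest hippocampus q is 0.0301. At an unadjusted p under 0.05 the members passing were 1 in cortex, 6 and 2 in these comparisons and 2 in DKO against TRF2-depleted. The cortex median log2 ratio reversed to -0.10 over the 7 tested rows. The DKO against control median moved to 0.055 over tested rows and to 0.21 over the 9 members with at least 1 FPKM. With a pseudocount of 1 FPKM the medians were 0.46, 0.21 and -0.23 in the hippocampus comparisons of TRF2-depleted against control, DKO against control and DKO against TRF2-depleted. Centring reversed Slc6a13 in DKO against TRF2-depleted to -0.0051. Of the other ratios of single members, a pseudocount of 0.1 FPKM moved 4 and the tested row moved 3 by over 0.1 without a change of sign. Between tissues 0 members passed also with errors from the deposited statistic. With those errors 1 member and 0.264% of genes had an unadjusted p under 0.05 in the test between tissues. With errors from the deposited p it was 2 members and 5.44% of genes. No paired analysis was possible because the tables hold 1 pooled value per condition, and for the same reason no replicate could be left out. Depth is unknown, and members near 1 FPKM rest on few fragments relative to Ptgds.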
